A study of Homo sapiens with 6 samples.

Results

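The TGF-beta ligands, their receptors, the latent TGF-beta binding proteins and the adaptor TGFB1I1 were followed in LX-2, a human line of immortalised hepatic stellate cells. The set was chosen by gene symbol: 10 symbols were proposed, and 8 of them have a row among the 16569 genes of the table, namely TGFB1, TGFB2, TGFB3, TGFBR2, TGFBR3, LTBP1, LTBP2 and TGFB1I1. TGFBR1, the type I receptor, and LTBP3 were not analysed here. All 6 libraries are from wild-type LX-2 cells of this 1 line, which were grown in DMEM with 2% serum and then held for 18 h in serum-free medium. A further 24 h followed with 100 ng/mL IGFBP-7 protein in 3 libraries (the IGFBP-7 group) or with phosphate-buffered saline in the other 3 (the PBS group). No label says that libraries of a group are separate cultures, so the p-values speak only of differences among these libraries, and these can be technical in origin. The comparison asks which transcripts of a stellate line differ after a day with IGFBP-7, a secreted protein that binds insulin-like growth factors.

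TGF-beta is made as a precursor whose propeptide stays wrapped around the mature cytokine after cleavage, and this latent complex is tied to the extracellular matrix through latent TGF-beta binding proteins. Once freed, the ligand binds the type II receptor, which recruits and phosphorylates the type I receptor, and SMAD2 and SMAD3 carry the signal to the nucleus. In the liver TGF-beta is the classical driver of stellate cell conversion to collagen-producing myofibroblasts, and these cells are themselves a source of the ligand.

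Levels are normalized counts as the authors scaled them, with the mean ± SD over n = 3 libraries a group. A change is the difference of log2(normalized count + 1), IGFBP-7 minus PBS, from limma-trend with its standard error (SE) and its Benjamini-Hochberg adjusted p over the 11872 genes tested. A gene is said to rise or fall where that adjusted p is under 0.05. The libraries held 40599380 to 55479940 recovered reads, 2 reads making 1 sequenced fragment, and a level of 3 fragments equals 2.54 to 3.20 normalized counts. Of 16 stellate markers 13 have a row, among them COL1A1 at a mean of 49614 and PDGFRB at 3055 normalized counts in PBS, while the mean of DES was 0 in PBS and VIM, LRAT and GFAP were not analysed here. The summed level of the 13 ran from 89760 to 94993 in PBS and from 273313 to 298350 with IGFBP-7, although RELN (log2 change -2.90), HAND2 (-0.59) and THY1 (-0.27) fell. Most of the rise in that sum lay in COL1A1, whose mean went from 49614 to 198928. Of markers of other cell types, ALB, PTPRC, EPCAM and CDH5 had group means between 0 and 9.72, but others were well above that. CD68 went from 2863 to 1466, CD14 from 399 to 86.0, CSF1R from 56.5 to 293, PECAM1 from 61.5 to 113 and TEK from 138 to 224, all with a limma adjusted p under 0.05, and SERPINA1 was at 252 and 227 (limma adjusted p = 0.396). The summed levels of the lists ran from 246 to 291 in PBS and 229 to 257 with IGFBP-7 for 7 of 10 hepatocyte markers, and from 324 to 359 and 435 to 504 for 7 of 9 endothelial markers. They ran from 3375 to 3466 and 1773 to 2064 for 9 of 10 macrophage and leukocyte markers, and from 27638 to 28460 and 37841 to 43939 for 8 of 9 cholangiocyte and epithelial markers, which include KRT8 and KRT18. What these lists' shifts contribute to the results was not tested. In bulk RNA a smaller number of cells of a kind and less RNA in each of them cannot be told apart.

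All 8 genes passed the filter on low values, and each had a mean above 10 in both groups. Each of the 8 also passed the test, where 60.6% of all tested genes did. With the filter raised to a mean of 100, which all 8 met, 6456 of 8850 genes passed. The 3 ligands, LTBP1 and LTBP2 rose (5 of 8, against 31.3% of tested genes), and TGFBR2, TGFBR3 and TGFB1I1 fell (3 of 8, against 29.2%). In all 8 the libraries of the 2 groups did not overlap, as was so for 63.5% of tested genes. The median change of the 8 was 0.65 on the log2 scale, beside 0.02 over all tested genes. The 8 were proposed with earlier results of these data known, so these counts and this median are a description only. Sizes were unequal: LTBP2 rose 7.97-fold and TGFB1 4.04-fold, TGFBR3 fell 3.70-fold, and the other 5 moved by less than 2-fold.

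The 250 bases before the RefSeq start are shown for 4 genes with 1 listed start each, which are the most changed ligand, the ligand beside it, the member that rose most and the member that fell most. They come from RefSeq (GRCh38.p14) and are written 5′ to 3′ on the strand of the gene, with matches to 6 searched motifs in capitals. The build used by the authors is not stated in the labels or the table, so these positions belong to the RefSeq table alone.
TGFB1, chr19:41353923-41354172, minus strand: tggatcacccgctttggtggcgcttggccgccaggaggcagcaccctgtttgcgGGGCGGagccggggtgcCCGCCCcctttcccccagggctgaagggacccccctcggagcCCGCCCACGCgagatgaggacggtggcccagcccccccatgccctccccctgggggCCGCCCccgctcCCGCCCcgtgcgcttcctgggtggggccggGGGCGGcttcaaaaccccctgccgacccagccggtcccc
TGFB2, chr1:218345086-218345335, plus strand: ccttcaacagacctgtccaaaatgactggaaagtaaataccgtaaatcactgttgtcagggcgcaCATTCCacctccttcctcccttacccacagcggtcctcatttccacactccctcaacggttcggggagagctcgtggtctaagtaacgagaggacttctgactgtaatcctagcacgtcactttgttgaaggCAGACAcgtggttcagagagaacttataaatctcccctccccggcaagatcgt
LTBP2, chr14:74612238-74612487, minus strand: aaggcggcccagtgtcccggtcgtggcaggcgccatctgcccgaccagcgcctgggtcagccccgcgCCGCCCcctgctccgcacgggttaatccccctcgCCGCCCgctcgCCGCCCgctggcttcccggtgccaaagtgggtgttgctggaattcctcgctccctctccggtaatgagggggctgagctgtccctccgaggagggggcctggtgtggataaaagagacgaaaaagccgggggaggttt
TGFBR3, chr1:91886152-91886401, minus strand: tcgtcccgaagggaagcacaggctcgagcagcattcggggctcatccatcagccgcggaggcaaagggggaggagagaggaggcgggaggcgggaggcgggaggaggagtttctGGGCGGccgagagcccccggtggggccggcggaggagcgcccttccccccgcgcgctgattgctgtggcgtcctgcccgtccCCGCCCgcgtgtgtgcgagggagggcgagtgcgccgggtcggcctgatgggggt

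The motifs, searched on both strands, were the AP-1 site TGANTCA, the SP1 GC box GGGCGG, the SMAD-type CAGA box CAGACA, the SMAD palindrome GTCTAGAC, the TEAD site GGAATG and the EGR site GCGTGGGCG. The window of TGFB1 was 76.8% G and C and held 6 GC boxes, 1 of which overlaps its EGR match. An EGR match occurs in 0.722% of the 34788 distinct RefSeq windows of this length, and a GC box in 42.6%. TGFB2 differed in kind: its window was 50.4% G and C and held no GC box, but 1 CAGA box and 1 TEAD site, letters found in 13.6% and 11.9% of windows. LTBP2 carried 3 GC boxes and TGFBR3 carried 2, so the gene that rose most and the gene that fell most matched the same motif. None of the 4 windows held the AP-1 letters, present in 6.59% of windows, or the SMAD palindrome, present in 0.178%. A match describes letters in a window and shows no binding.

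Among the ligands, TGFB1, the form best known from fibrotic liver, had 6093, 5717 and 6127 normalized counts in the PBS libraries and 25559, 23339 and 23594 in the IGFBP-7 libraries, in the order of replicates 1 to 3. The lowest IGFBP-7 library lay far above the highest PBS library. The change was 2.01 ± 0.05 on the log2 scale (limma adjusted p = 3.52e-38), a fold of 4.04 with a 95% interval of 3.79 to 4.31. Only 3.05% of tested genes had a larger absolute change. Between 5736 and 5917 fragments in PBS and between 22835 and 27559 with IGFBP-7 lie behind these values, so counting error was 1.31% and 0.632% of the level, below the spread between libraries of 3.80% and 5.03%. In GENCODE 29 the exons of TGFB1 share 215 bases with HNRNPUL1 on the opposite strand, and those of LTBP1, LTBP2 and TGFB1I1 share 249, 207 and 118 with opposite-strand genes, none of which was analysed here.

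TGFB2, the isoform whose propeptide lacks the integrin-binding sequence of the other two, stood at 2606, 2878 and 2932 in PBS and at 5299, 4276 and 4878 with IGFBP-7. The groups were separate, but the IGFBP-7 libraries spread widely (SD 514 around a mean of 4818). It rose 1.71-fold, with an interval of 1.57 to 1.87 (log2 change 0.78 ± 0.06, limma adjusted p = 1.71e-15). The table also has a row for TGFB2-OT1, which in GENCODE 29 lies on the same strand with all 1371 of its exon bases inside exons of TGFB2. The position of a read there does not tell the 2 genes apart, and how such reads were assigned is not stated. The TGFB2 row may lack them, or they may stand in both rows and be counted more than once in a sum. The TGFB2-OT1 row rose from 377 ± 34.8 to 801 ± 59.9, and the 2 rows summed went from 3183 ± 209 to 5619 ± 574, a log2 difference of 0.82. TGFB2-AS1, an antisense gene, rose as well, from 455 ± 21.5 to 669 ± 65.8. In GENCODE 29 no gene on the opposite strand, TGFB2-AS1 included, shares exon bases with TGFB2. The annotation and strand setting of the counts are not stated in the labels or the table. The value of TGFB2 is uncertain because of the reads shared with TGFB2-OT1.

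TGFB3 was the scarcest ligand, with 71.1, 98.2 and 76.9 normalized counts in PBS and 156, 144 and 146 with IGFBP-7. The highest PBS library stayed below the lowest IGFBP-7 library. Its rise was 1.82-fold, with an interval from 1.37 to 2.41 that was the broadest of the 8 on the log2 scale (log2 change 0.86 ± 0.20, limma adjusted p = 2.45e-04). Only 69 to 100 fragments were counted in each PBS library, for a counting error of 11.3% beside a spread of 17.4%. TGFB3-AS1, whose exons share 163 bases with those of TGFB3 on the opposite strand, was at 9.58 ± 2.98 and 13.8 ± 7.47, with overlapping groups and a limma adjusted p = 0.647.

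**Figure D1:**
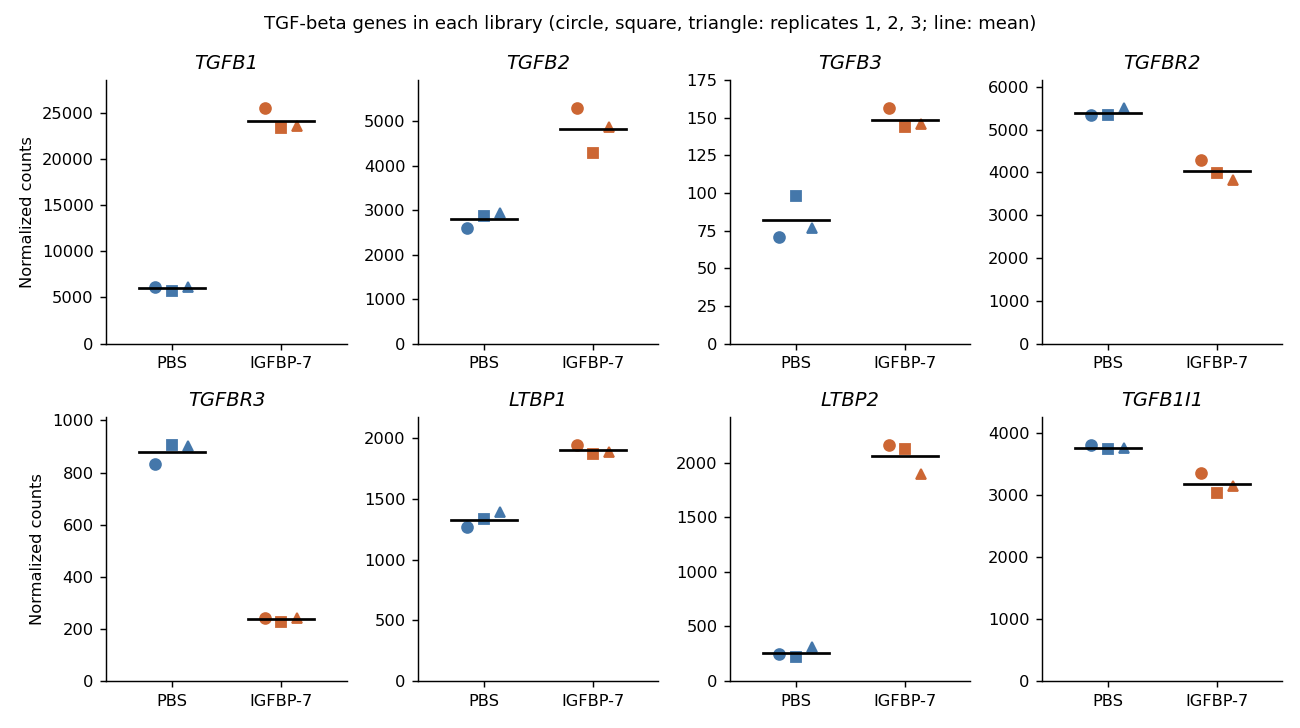
Normalized counts (vertical axes, each from 0) of the 8 genes in the 3 PBS and 3 IGFBP-7 libraries, with 1 marker shape per replicate number and a line at each group mean. The groups are separate in every panel, with TGFB1 between 5717 and 6127 in PBS and between 23339 and 25559 with IGFBP-7.

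The receptors moved in the opposite direction. TGFBR2, the type II receptor kinase that all 3 ligands signal through, had 5334, 5339 and 5507 normalized counts in PBS and 4297, 3990 and 3815 with IGFBP-7. Each IGFBP-7 library was lower than each PBS library. The fall was small, 1.34-fold with an interval of 1.24 to 1.44 (log2 change -0.42 ± 0.05, limma adjusted p = 3.23e-09), and 39.5% of tested genes changed by more.

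TGFBR3 encodes betaglycan, a membrane proteoglycan without kinase activity that presents ligand to the type II receptor and is needed chiefly for TGFB2; its shed ectodomain can instead bind ligand away from the cell. It was at 832, 904 and 900 in PBS and at 241, 227 and 242 with IGFBP-7, a narrow band in both groups. With IGFBP-7 the spread of 3.55% was below the counting error of 6.39%. TGFBR3 fell 3.70-fold, with an interval of 3.19 to 4.30 (log2 change -1.89 ± 0.11, limma adjusted p = 3.26e-21). It held position 199 of the 11872 tested genes when these are ordered from the most negative change.

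LTBP1 and LTBP2 both rose, LTBP2 by far more. LTBP1, which is disulfide-linked to the propeptide and places the latent complex in the matrix, had 1267, 1333 and 1391 normalized counts in PBS and 1942, 1874 and 1890 with IGFBP-7. The groups were separate and the rise was 1.43-fold, with an interval of 1.30 to 1.58 (log2 change 0.52 ± 0.07, limma adjusted p = 9.98e-09).

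LTBP2, a microfibril-associated relative that does not bind latent TGF-beta, had 248, 221 and 312 normalized counts in PBS. With IGFBP-7 it had 2162, 2132 and 1899, each several times the highest PBS library. Its rise of 7.97-fold (interval 6.94 to 9.16, log2 change 2.995 ± 0.10, limma adjusted p = 4.11e-31) put it at position 75 among tested genes ordered from the most positive change. The PBS libraries of LTBP2 varied by 17.9% where counting error was 6.32%.

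TGFB1I1, also called Hic-5, is a LIM-domain protein of the paxillin family that was named for its induction by TGF-beta and sits at focal adhesions. It had 3802, 3739 and 3761 normalized counts in PBS and 3349, 3028 and 3147 with IGFBP-7. The PBS group was the tightest of any of the 8 genes (0.852% spread). That spread is below the counting error of 1.65%, so it is no measure of precision. TGFB1I1 fell 1.19-fold with an interval of 1.10 to 1.29 (log2 change -0.25 ± 0.06, limma adjusted p = 2.07e-04). This was the smallest change of the 8, and 64.7% of tested genes changed by more.

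**Figure D2:**
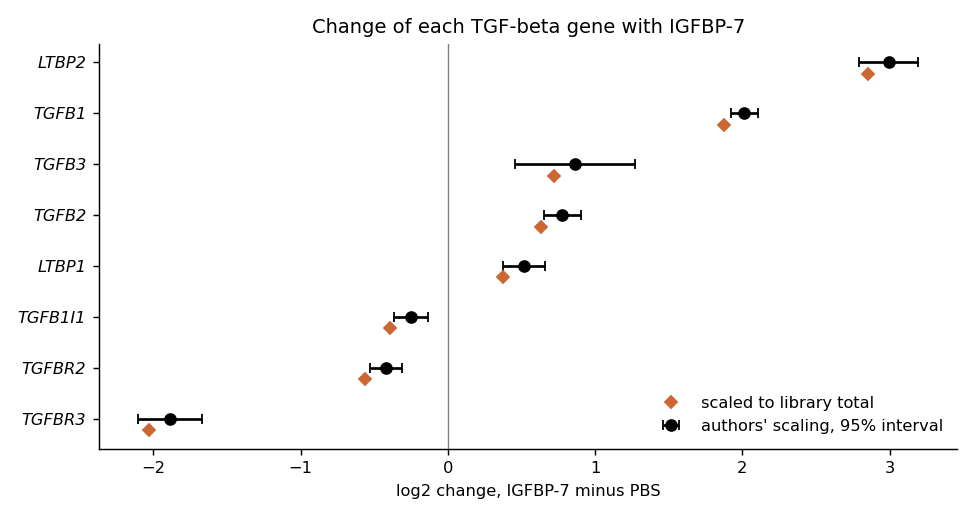
Log2 change of each gene, IGFBP-7 minus PBS (horizontal axis), with the limma 95% interval as a bar and, as a diamond, the value after scaling each library to its total. LTBP2 (2.995) and TGFB1 (2.01) are highest and TGFBR3 (-1.89) lowest, and all 8 keep their direction under the other scaling.

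Scaling to the library total lowered all changes, with a shift of -0.14 in the median over all tested genes. Under it TGFB1 was at 1.87, LTBP2 at 2.85, TGFB2 at 0.63, TGFB3 at 0.72 and LTBP1 at 0.38, and TGFBR2 was at -0.56, TGFBR3 at -2.03 and TGFB1I1 at -0.39, all with a limma adjusted p under 0.05. The share of tested genes called higher was then 20.5% and that called lower 35.2% (2435 and 4176 genes, against 3721 and 3471 with the authors' scaling). Replicate 1 of the IGFBP-7 group had the highest value of its group in 7 of the 8 genes, and in 5 of 8 after scaling to the total. What that library contributes can be read from the fits without it, in which all 8 genes kept direction and call.

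To compare levels between genes, normalized counts were divided by the length of each gene's merged exons in GENCODE 29, from 3238 bases for TGFB1 to 9091 for LTBP2. The labels and the table name no annotation release for the counts, so these levels per kilobase (kb) are approximate. In PBS the order was TGFB1 (1847 ± 70.2 per kb), TGFBR2 (1147 ± 20.9), TGFB1I1 (697 ± 5.94), TGFB2 (545 ± 33.9), LTBP1 (181 ± 8.47), TGFBR3 (101 ± 4.67), LTBP2 (28.6 ± 5.13) and TGFB3 (16.7 ± 2.91). No neighbours in that order overlapped between their libraries. With IGFBP-7 the order became TGFB1 (7463 ± 375 per kb), TGFB2 (935 ± 99.9), TGFBR2 (857 ± 51.8), TGFB1I1 (588 ± 30.0), LTBP1 (260 ± 4.87), LTBP2 (227 ± 15.8), TGFB3 (30.3 ± 1.37) and TGFBR3 (27.2 ± 0.966). The libraries of TGFB2 and TGFBR2 overlapped there, and those of the other neighbours did not. LTBP2 thus moved from well below LTBP1 to just under it, and TGFBR3 from the sixth place to the last.

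**Figure D3:**
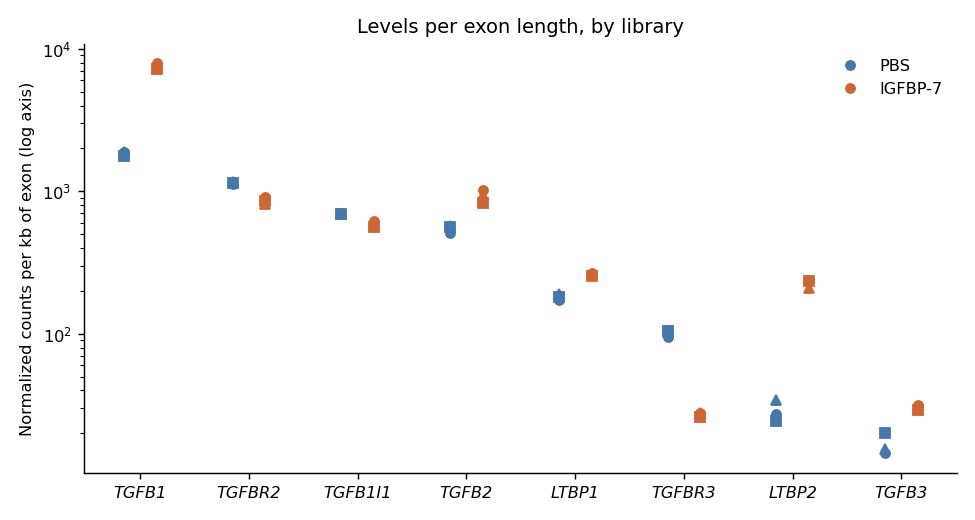
Normalized counts per kilobase of exon (log axis) for the 8 genes in each PBS and IGFBP-7 library, ordered by the PBS mean, with 1 marker shape per replicate number. TGFB1 leads in both groups, at 1847 and 7463 per kb, and TGFBR3 goes from 101 to 27.2 per kb.

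By these levels per kb TGFB1 made up 78.3%, 75.3% and 76.4% of the 3 ligands' sum in the PBS libraries and 88.2%, 89.3% and 88.2% in the IGFBP-7 libraries. TGFB2 supplied the rest almost alone, with 22.6% ± 1.42 in PBS and 11.1% ± 0.684 with IGFBP-7, so its share fell although its level rose. The sum itself went from 2408 ± 66.4 to 8428 ± 466 per kb. Within the sum of LTBP1 and LTBP2, the share of LTBP2 went from 13.6% ± 1.76 to 46.6% ± 1.65. That sum leaves out LTBP3, which was not analysed here, and LTBP4, a latent binding protein outside the 8 genes. LTBP4 had 4745 normalized counts in PBS and 7867 with IGFBP-7. These were not divided by exon length and are not on the scale of the sum. TGFBR3 was 8.09% ± 0.307 of the sum with TGFBR2 in PBS and 3.08% ± 0.202 with IGFBP-7.

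Ratios of 2 genes within 1 library do not depend on how libraries are scaled to each other. Of 7 planned pairs, 5 could be formed. With 3 against 3 libraries the exact permutation test, two-sided, cannot give a p below 0.10, and all 5 pairs reached that value, which was also their adjusted p over the 5. The log2 ratio of TGFB1 to TGFB2 was 1.09 ± 0.12 in PBS and 2.33 ± 0.10 with IGFBP-7, a 2.36-fold shift toward TGFB1. TGFB1 to TGFB3 went from 6.18 ± 0.29 to 7.33 ± 0.01, a shift of 2.22-fold. The SD of 0.01 is below what counting error would give, as that of TGFB3 alone was 8.06% with IGFBP-7. For the receptors, TGFBR3 to TGFBR2 went from -2.62 ± 0.06 to -4.08 ± 0.10, so betaglycan RNA fell 2.77-fold relative to the type II receptor.

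Ratios with the latent binding protein genes shifted too. LTBP1 to TGFB1 went from -2.17 ± 0.09 to -3.67 ± 0.04, which is 2.82-fold less LTBP1 RNA for the same amount of TGFB1 RNA. LTBP2 to LTBP1 went from -2.36 ± 0.22 to 0.12 ± 0.10, a 5.57-fold shift, the largest of the 5. The ratios use counts not divided by exon length, so their sign does not rank 2 genes by level. Per kb LTBP2 stayed below LTBP1 with IGFBP-7, at 227 against 260. In none of the pairs did the groups overlap.

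**Figure D4:**
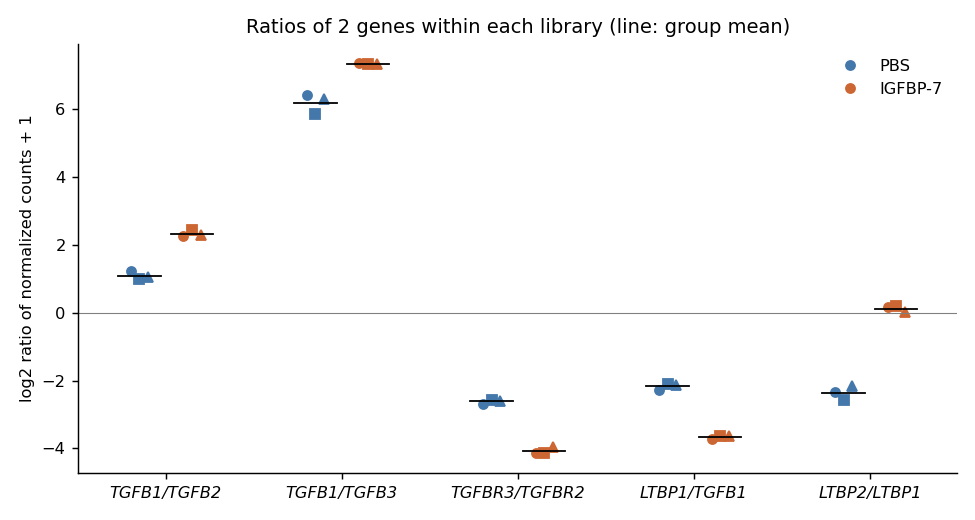
Log2 ratio of normalized counts + 1 (vertical axis) for 5 gene pairs in each PBS and IGFBP-7 library, with a line at each group mean. The groups are separate in each pair, and LTBP2/LTBP1 moves from -2.36 to 0.12.

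The rest of the pathway was read from 5 lists that leave out the 8 genes. Beside them stand the 31.3% of all tested genes that rose and the 29.2% that fell. All 5 lists were chosen with earlier results of these data known, so their counts are a description only. Of 19 tested genes that anchor or activate the latent complex, 13 rose and 5 fell, and 1 did not pass. The median log2 change was 0.73. FN1, fibronectin, onto which latent complexes are first laid, rose by 2.40 ± 0.04, or by 1.15 with quantile normalization, and THBS1, the activator thrombospondin-1, rose by 1.90 ± 0.04. ITGB6, the subunit of an epithelial integrin that frees the cytokine, rose by 3.59 ± 0.50 from 14 fragments in the 3 PBS libraries together to 194. With a pseudocount of 5 its rise was 2.82. NRROS, which anchors latent TGF-beta on macrophages and microglia, fell by 1.74 ± 0.33, and ITGB8, the subunit of another activating integrin, by 1.25 ± 0.18. Named here after their values were seen were FURIN, the protease that cleaves the precursor, and LTBP4, another latent binding protein. FURIN rose from 8666 ± 154 to 17937 ± 332, and LTBP4 from 4745 ± 125 to 7867 ± 155. LTBP4 thereby rose along with LTBP1 and LTBP2, by 0.73 ± 0.05.

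Co-receptors, traps and ligand-binding proteins split by direction: among 12 tested genes 6 rose and 4 fell, the latter a share near that of all tested genes (median 0.50). FSTL3, a secreted binder of activins, rose from 588 ± 40.9 to 3356 ± 147, BGN, the TGF-beta-binding proteoglycan biglycan, from 142 ± 10.9 to 752 ± 76.3, and NRP2, a neuropilin co-receptor, from 1674 ± 113 to 6876 ± 400. LUM, the proteoglycan lumican, fell from 354 ± 58.5 to 109 ± 9.84. NRP1, the other neuropilin, fell from 10128 ± 369 to 7614 ± 159, and so moved opposite to NRP2 and in the direction of TGFBR3.

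Signal transducers and inhibitors near the receptor numbered 19, of which 12 rose and 6 fell (median 0.30). Scaled to library totals, 10 were higher and 6 lower, as SMAD6 and TGIF2 no longer passed. The largest rises were in feedback inhibitors: PMEPA1, which sequesters SMADs, by 6.60 ± 0.08, SMAD7, which blocks the receptor, by 3.32 ± 0.08, and SKIL, a SMAD corepressor, by 2.69 ± 0.07. SMAD3, the signal carrier itself, fell from 10740 ± 250 to 4767 ± 179, and PPP1R15A, a phosphatase subunit, from 4177 ± 72.0 to 1756 ± 114.

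All 19 tested TGF-beta target genes rose, with a median of 2.00. Scaled to library totals, 18 of the 19 did, as CCN2 no longer passed. With DESeq2 on recovered reads the count was 18 as well. This list overlaps with one already known to rise in these libraries, so its direction is no independent evidence. NOX4, an oxidase of activated myofibroblasts, rose from 16.4 ± 5.28 to 598 ± 33.1 normalized counts, SNAI1 by 3.93 ± 0.10 and TGFBI by 3.72 ± 0.04 on the log2 scale. TGFBI was at 2.90 with quantile normalization. CCN2, which encodes connective tissue growth factor and is named here after its value was seen, rose by 0.29 ± 0.07 with overlapping groups.

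Around TGFB1I1, the paxillin family and focal adhesion partners numbered 16, of which 10 fell and 6 rose (median -0.28). PTK2B, a kinase bound by TGFB1I1, fell by 1.16 ± 0.08, and the adaptor BCAR1 by 0.60 ± 0.05. LIMS1, which encodes the adaptor PINCH, rose by 1.34 ± 0.05, CSRP2 by 0.58 ± 0.07 and MRTFA, a coactivator of SRF, by 0.51 ± 0.07. With the other scaling 5 of the 16 were higher and 10 lower, as SRF no longer passed. The paralog PXN, named here after its value was seen, rose by 0.30 ± 0.04, opposite in direction to TGFB1I1 at -0.25 ± 0.06.

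**Figure D5:**
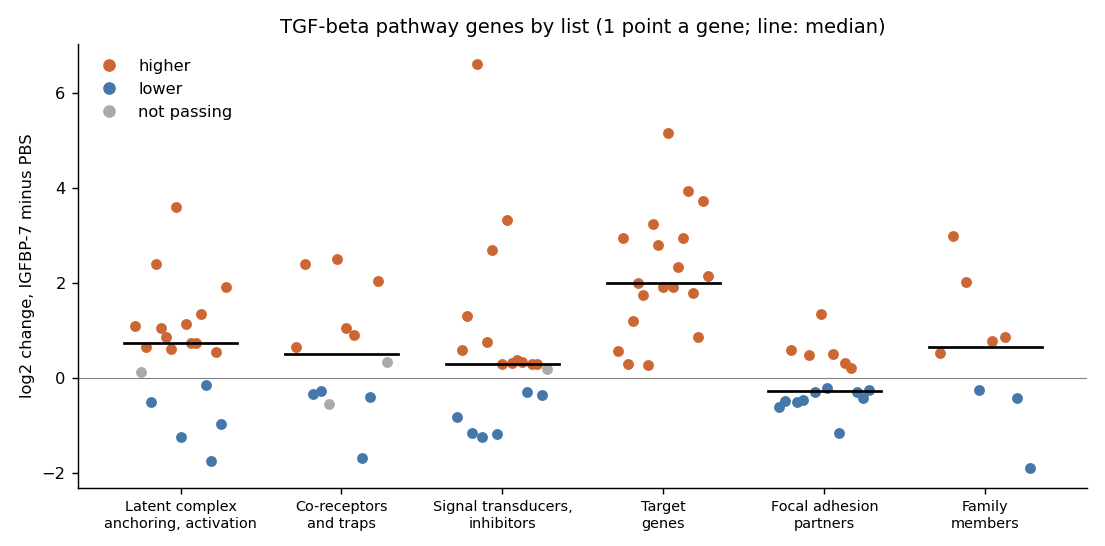
Log2 change, IGFBP-7 minus PBS (vertical axis), of each tested gene in 5 pathway lists and of the 8 family members, coloured by call, with a line at each median. All 19 target genes lie above 0, with a median of 2.00, and the other lists hold genes on both sides.

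Genes with the most similar course over the 6 libraries were found by Euclidean distance between log2 profiles centred on their PBS means, as a description. Nearest to LTBP2 were BHLHE40, a transcriptional repressor gene, at 0.273, its antisense gene BHLHE40-AS1 at 0.361 and the homeobox gene DMBX1 at 0.399. BHLHE40 had 2236, 2269 and 2513 normalized counts in PBS and 18575, 18108 and 17230 with IGFBP-7. DMBX1 is uncertain, since its PBS libraries held 1.96 to 4.27 normalized counts, at about the level of 3 fragments. Nearest to TGFBR3 were TMEM178B at 0.150, PHLDA1-AS1 at 0.163 and MAP3K5, a stress-activated kinase gene, at 0.174. MAP3K5 went from 2876, 2798 and 2907 to 789, 811 and 789, a similar fold from a higher level.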

How the data were processed

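The libraries, of poly(A) RNA, came from a strand-marking NEBNext Ultra II kit and were read on an Illumina NovaSeq, per the labels' protocols. The deposited values are normalized counts, a signal of read counts divided by 1 factor per library, per the file headers. The submitters' processing notes list STAR, Subread, featureCounts and DESeq2, with neither versions nor roles. The genome build, annotation and strand setting were not given in the sources used here.

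Each library's values were whole multiples of 1 step, so reads were recovered: 100% came out whole within 0.01 of a step. Pairs of replicates had a chi-square per degree of freedom between 5.10 and 6.93, beyond sampling noise. The 11872 genes averaging 10 or more were tested with limma-trend (limma 3.58.1, R 4.3.3) on log2(value + 1), two-sided, over all 6 libraries, with Benjamini-Hochberg adjustment. In simulated data with 11872 genes it recovered 77 of 100 genes changed by 1 and 66 of 100 changed by 0.5 on the log2 scale, with 11 false calls in all. Far fewer genes were changed there than the 60.6% called in the real data, so these rates need not carry over. Alternatives were other pseudocounts (0.5 and 5), filters (none and a mean of 100), scalings, a replicate block, each library left out, and edgeR 4.0.16 and DESeq2 1.42.0 on recovered reads, which called 7103 and 7108 genes against 7192. Ratios used an exact permutation test. Intervals cover 95%, and counting error treats fragments as independent, although reads carry no molecular identifiers.

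Members and lists were chosen with earlier results of these data known. Named were all members, the 3 largest rises and 2 largest falls of each list among genes with an adjusted p under 0.05 and separate groups, the 3 nearest profiles to the most changed member in each direction, and rows named as antisense or overlapping. All 10 symbols matched RefSeq promoters. Exon lengths from GENCODE 29 were taken for the 8 members with a row, by Ensembl identifier. The number of per-sample columns left unused was 0.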

Additional observations from a re-analysis of the deposited data

How the results depend on the processing

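Under 15 alternatives each of the 8 family members kept its direction and its call (120 of 120 values), with a highest adjusted p of 0.00324. The changes ranged from 1.87 to 2.04 for TGFB1, 2.85 to 3.13 for LTBP2 and -2.03 to -1.86 for TGFBR3, and from 0.63 to 0.86 for TGFB2, 0.72 to 0.998 for TGFB3, 0.38 to 0.55 for LTBP1, -0.56 to -0.38 for TGFBR2 and -0.39 to -0.21 for TGFB1I1. The 23 other named pathway genes of the rule kept theirs wherever they were tested (343 of 343 values), and 3 of them moved by over 1.5 times in fold. On the log2 scale FN1 went from 2.40 to 1.15 and TGFBI from 3.72 to 2.90 with quantile normalization, and ITGB6 from 3.59 to 2.82 with a pseudocount of 5; the cause was not tested. Of the counts, only that of all genes called higher moved by over 1.5 times, to 2435 with scaling to the library total, against 3721. All 5 ratios kept their sign with other pseudocounts and with each library left out, and TGFB1 to TGFB3, at 1.15, ranged from 0.98 without PBS replicate 2 to 1.26 without PBS replicate 1. Same-numbered libraries did not deviate together (correlations -0.05 to 0.01, against -0.03 to 0.07 for other pairs). This cannot show whether same-numbered libraries were handled together. With the replicate number as a block 3715 genes were higher and 3462 lower, the members' calls stayed 5 higher and 3 lower, and the ratio of TGFB1 to TGFB2 differed by 1.24 with a sign-flip permutation p of 0.25, the smallest that 3 pairs allow. Depth limits TGFB3, at 69 to 170 fragments a library, most among the members.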
